A study of Mus musculus with 3 samples.

Results

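The forkhead genes encode transcription factors that share a DNA-binding fold, the forkhead or winged helix. They were followed in whole skin of the mouse. Members were the rows of the deposited tables whose gene name is Fox, a letter and a number and nothing else, which gave 43 of 21885 rows. Row Foxf1a fell outside this rule, and its values were 0.0806, 0.0166 and 0.297 FPKM over the 3 ages. FPKM, fragments per transcript length and mapped fragments, is a level per transcript length. Values of different genes can thus be set side by side only as far as the lengths used fit the transcripts.

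The groups are 3 ages of FVB mice, an inbred laboratory strain, headed WT (wild type) in the tables and with no treatment given in the labels: E18.5 (embryonic day 18.5), P3 (3 days after birth) and adults of 10 weeks. Values are listed below in this order of ages. Per the series design, 2 biological replicates were collected at each age, and the labels do not say whether a replicate pools animals. Each table holds 1 averaged value per gene, so no difference below has an error, a test or a replicate check. The read number behind each value is unknown.

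Forkhead proteins read short DNA sites through a helix that lies in the major groove, and the classes (FoxA, FoxB and so on) differ in the parts around it. In skin the family is best known through the nude mouse, which lacks Foxn1 and grows no visible coat, and the satin mouse, whose coat sheen comes from a defect of Foxq1. Foxo proteins are held in the cytoplasm when insulin or growth factor signals activate the kinase Akt, and Foxm1 switches on genes of mitosis.

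The coding bases of that helix are shown for 7 members on which the results turn, to show what a forkhead gene shares whatever its role in skin. Each stretch is 30 bases, read from the GENCODE M21 coding transcripts of the mouse, and capitals mark the 15 bases that are the same in all 7. The residue pattern used to find the stretch required tryptophan, asparagine and arginine at fixed places and limited some others. The capitals TGG and AA, and part of CG and CA, are therefore shared by construction.
Foxn1: TGGaagAAttctgTtCGcCAtAACCTgtcc
Foxe1: TGGcagAAcagcaTcCGcCAcAACCTcacc
Foxq1: TGGcgcAActccgTgCGcCAcAACCTctcg
Foxc1: TGGcagAAcagcaTaCGgCAcAACCTctcg
Foxm1: TGGaagAActctaTtCGtCAcAACCTttct
Foxo3: TGGaagAActccaTcCGgCAcAACCTgtcc
Foxp3: TGGaagAAtgccaTcCGcCAcAACCTgagc

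A stretch of this form was found in 40 of the 43 members, and not in Foxh1, Foxr1 and Foxr2, which means only that these did not meet the pattern. Against Foxn1, the base identity was 20 of 30 in Foxe1, 21 in Foxq1, 19 in Foxc1, 24 in Foxm1, 24 in Foxo3 and 23 in Foxp3. Of the 10 residues these bases encode, 9 were those of Foxn1 in Foxq1, Foxm1 and Foxo3, 8 in Foxc1 and Foxp3, and 7 in Foxe1. Residues that the pattern required count in these identities.

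Of the 43 members, 24 reached 1 FPKM at 1 or more ages, and 17 did so at all 3. Among all rows 67.0% reached 1 FPKM. Over the 3 ages 21, 19 and 23 members reached it. The other 19 never reached it. Their highest value was 0.710 FPKM, for Foxd2 at 10 weeks, and Foxb2 and Foxi2 were listed at 0 at all ages. Several of these are textbook factors of other organs, such as Foxl2 of the ovary, Foxe3 of the lens, Foxn4 of the retina, and Foxa2 and Foxa3 of endoderm and liver. Others are Foxb1, Foxd4, Foxf2, Foxh1, Foxi1, Foxj1, Foxl1, Foxp2, Foxp3 and Foxr2.

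The family's summed level was 125, 192 and 170 FPKM. The Foxo and Foxk genes made up 44.1%, 40.4% and 43.7% of it. The 4 hair and epidermal members made up 9.05%, 17.3% and 6.61%, and Foxm1 alone 9.03%, 7.13% and 1.08%. The leading gene was Foxo4 at E18.5 (16.9 FPKM), Foxo3 at P3 (18.98 FPKM) and again Foxo4 at 10 weeks (26.4 FPKM). At E18.5 Foxk2 and Foxm1 followed with 13.9 and 11.3 FPKM. At P3 the next were Foxk2, Foxo1 and Foxo4 with 15.9, 14.9 and 14.7 FPKM, and whether such close neighbours differ cannot be told without replicates.

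**Figure D1:**
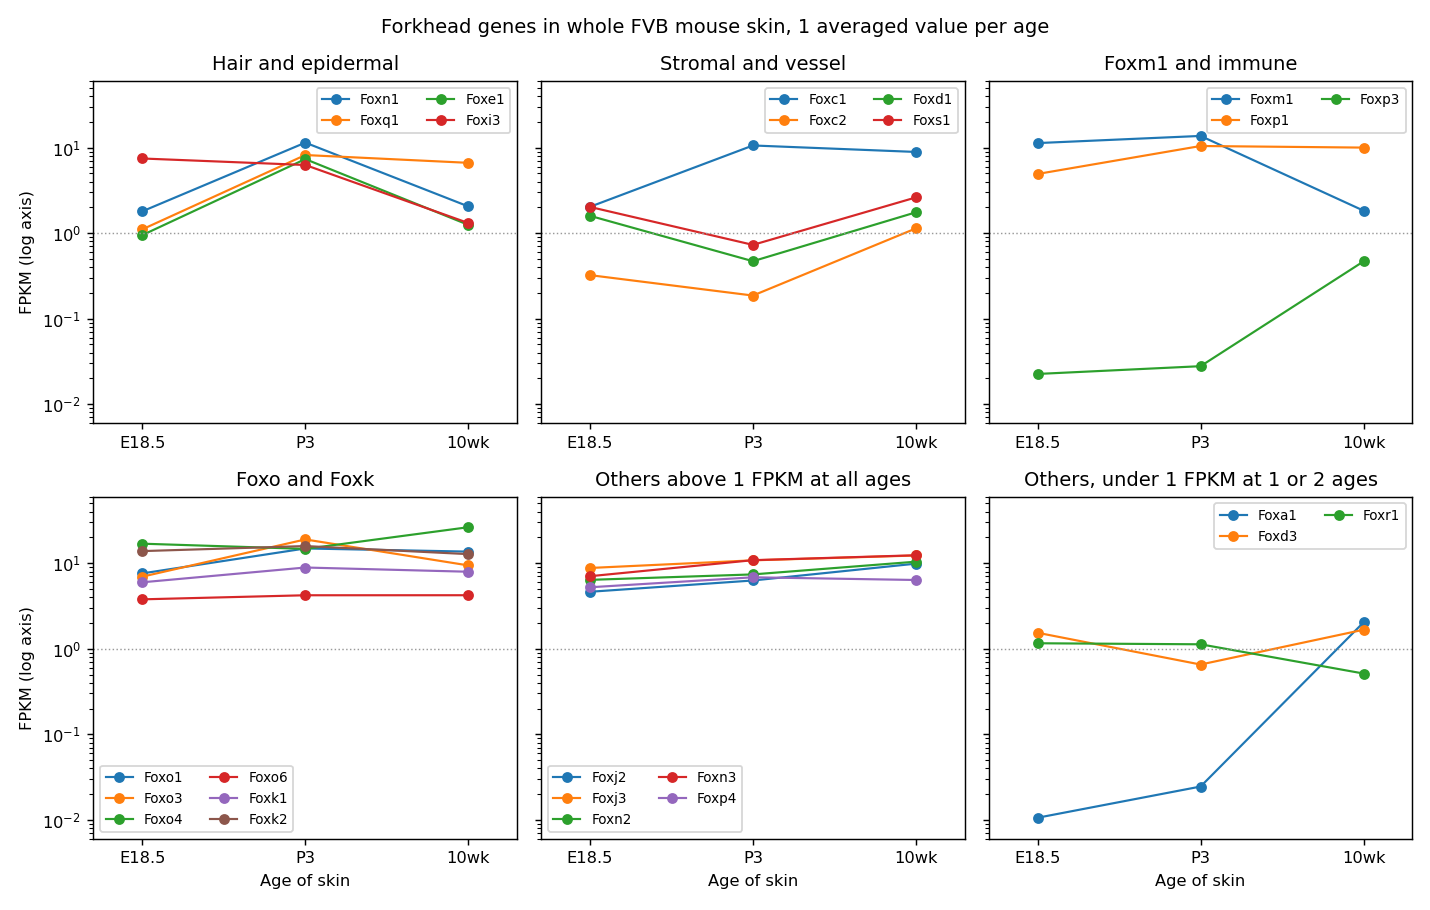
FPKM (log axis) of the 24 forkhead genes that reached 1 FPKM, and of Foxp3, at the 3 ages, in panels by role; each point is the authors' average for an age and the dotted line marks 1 FPKM. Foxn1 and Foxe1 peak at P3, Foxq1 and Foxc1 stay high at 10 weeks, Foxm1 drops to 1.83 FPKM at 10 weeks, and Foxp3 stays below 0.5 FPKM throughout.

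For each pair of ages, the log2 difference of (FPKM + 1), later age minus earlier, was taken for genes with 1 FPKM or more at any age. The added 1 makes low genes look steadier than they are. Differences of 1 or more in size, 2-fold on this scale, are called. From E18.5 to P3, 5 of 24 members were higher and 0 were lower, where 9.56% of all 14653 genes compared were higher and 9.42% lower. The 5 were Foxn1, Foxq1, Foxe1, Foxc1 and Foxo3. From P3 to 10 weeks 2 members were higher, against 19.8% of all genes, and 4 were lower, against 9.98%. The 2 were Foxa1 and Foxs1, and the 4 were Foxn1, Foxe1, Foxi3 and Foxm1. From E18.5 to 10 weeks 3 were higher, Foxa1, Foxc1 and Foxq1, against 16.1% of all genes, and 2 were lower, Foxi3 and Foxm1, against 6.92%. Members under 2-fold in all 3 comparisons numbered 15 of 24, where 60.3% of all genes were. A pseudocount of 5 in place of 1 ended the calls of Foxa1, Foxs1, Foxe1 and Foxi3 from P3 to 10 weeks and, other than for Foxm1, all those from E18.5 to 10 weeks. Scaling the ages to their upper quartiles gave 5 members higher and 0 lower in the first comparison, where 1139 of all genes were then higher and 1775 lower in place of 1401 and 1380. In the second it gave 1 higher and 5 lower, Foxs1 going under and Foxo3 past 2-fold, where 2638 of all genes were higher and 1650 lower in place of 2909 and 1462. In the third it left 3 higher and 2 lower, where 1786 and 1347 of all genes were called in place of 2358 and 1014. The median of ratios gave the same counts of members, with 1360 and 1476, 2415 and 1918, and 1817 and 1299 of all genes. The comparisons share ages, so an error in a gene's P3 value would enter the first and the second with opposite sign.

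**Figure D2:**
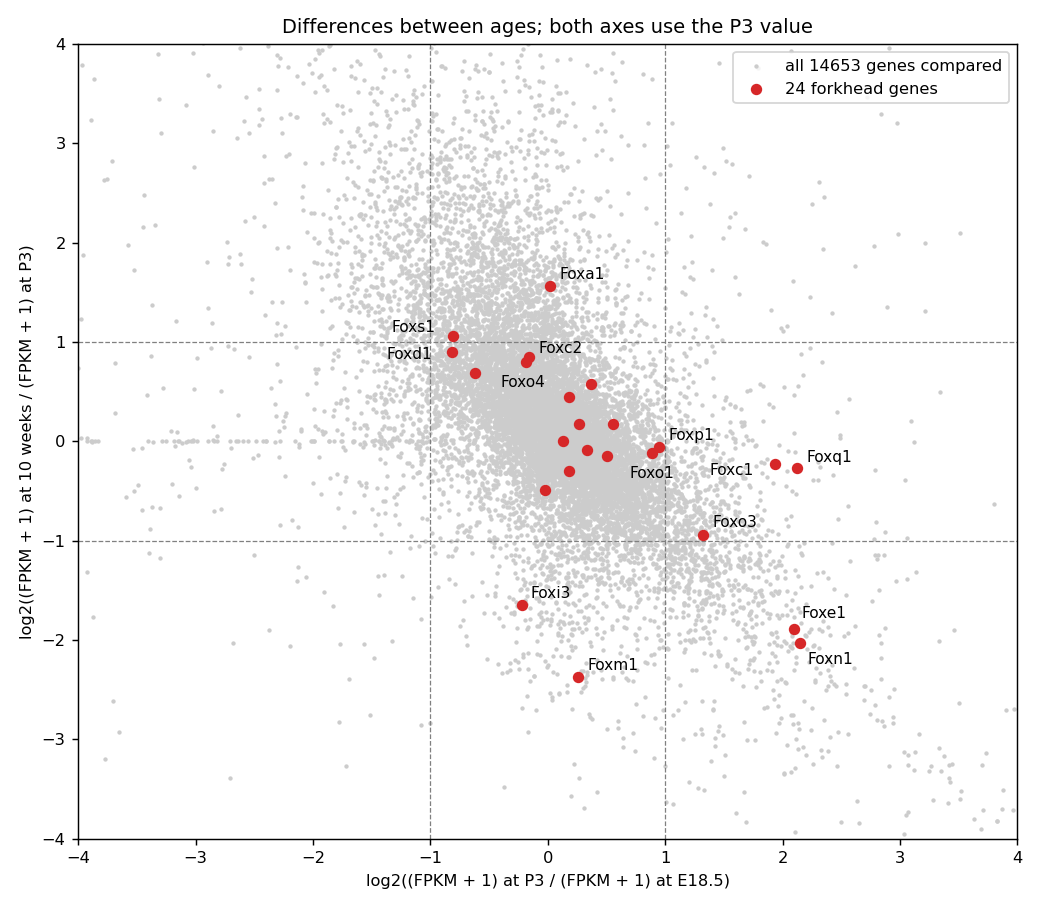
Difference from E18.5 to P3 (horizontal axis) against difference from P3 to 10 weeks (vertical axis), both as log2 of (FPKM + 1), for 24 forkhead genes (red) and all 14653 genes compared (grey, with 424 beyond the axes); dashed lines mark 2-fold. Foxn1 and Foxe1 lie at the lower right, Foxq1 and Foxc1 at the right near 0 on the vertical axis, and Foxm1 and Foxi3 at the bottom.

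The hair and epidermal members were Foxn1, Foxq1, Foxe1 and Foxi3, and 3 of the 4 gained 2-fold or more between E18.5 and P3. Foxn1, which drives keratinocytes and hair matrix cells into terminal differentiation (mm9 chromosome 11, 78171790 to 78200060), stood at 1.80, 11.4 and 2.05 FPKM. The P3 value alone was high, and the other ages were close to each other. Its log2 differences were 2.15 and then -2.03, and the first ranked at percentile 98.1 of all genes compared. Foxe1, a factor of thyroid and hair follicle that acts downstream of hedgehog signals in follicles (chromosome 4, 46357066 to 46358181), took nearly the same course, with 0.948, 7.34 and 1.25 FPKM. Its log2 differences were 2.097 and -1.89. Foxn1 and Foxe1 were the 2 members called highest at P3 against both other ages, as 5.35% of all genes were, and 0 were called lowest there, as 5.54% were.

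Foxq1, which controls differentiation of the hair medulla downstream of Hoxc13 (chromosome 13, 31650039 to 31652843), was also higher after birth but did not return. Its levels were 1.11, 8.18 and 6.63 FPKM. The log2 difference was 2.12 from E18.5 to P3 and -0.27 from P3 to 10 weeks. Between E18.5 and the adult it was 1.86. As a plain ratio of FPKM, without the added 1, the adult level was 5.99 times that of E18.5. Foxi3, an ectodermal placode gene that ectodysplasin signals induce and that is mutated in hairless dog breeds, ran the other way. It stood at 7.46, 6.26 and 1.31 FPKM (chromosome 6, 70906600 to 70911060), high at both early ages and low in the adult. Its log2 difference from P3 to 10 weeks was -1.65. The 4 hair genes thus fell into 3 courses, with the top at P3 in Foxn1 and Foxe1, P3 and 10 weeks both high in Foxq1, and E18.5 and P3 both high in Foxi3. At E18.5 their order was Foxi3, Foxn1, Foxq1 and Foxe1, whereas at 10 weeks Foxq1 led.

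Regulators and products of the hair shaft moved over the same ages. Of 13 hair differentiation regulators, 7 were higher at P3 than before birth and 0 lower, where 9.56% and 9.42% of all genes were. Their median log2 difference was 1.18, beside 0.03 over all genes. From P3 to 10 weeks 10 of the 13 were lower and 0 higher, with a median of -1.66 beside 0.14 over all genes. Of all genes 9.98% were lower and 19.8% higher in that comparison. Hoxc13, a homeobox gene of the hair shaft that acts upstream of Foxn1 and Foxq1, stood at 6.31, 27.6 and 3.50 FPKM. Dlx3 was at 15.9, 75.1 and 8.03 FPKM and Msx2 at 6.06, 29.9 and 3.34 FPKM. These 3 peaked at P3 like Foxn1 and Foxe1, and Gata3 of the inner root sheath had the course of Foxq1, with 14.6, 39.3 and 32.0 FPKM. Shh, the hedgehog ligand, had that of Foxi3, with 11.2, 8.78 and 0.982 FPKM. Not every regulator moved, as Bmp4 (14.6, 11.7 and 10.9 FPKM) and Sox9 (7.01, 14.7 and 8.92 FPKM) were under 2-fold in every comparison. Of the 12 hair shaft products with a value at P3, 12 were higher there than before birth (median 4.80) and 12 were lower again at 10 weeks (median -4.46). Krt33a went from 0.874 to 149 and 4.21 FPKM. Foxn1 itself spanned a smaller range than any of these 12 in both comparisons. Tchh, the thirteenth, had a failed estimate at P3.

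Keratinocyte markers were also higher at P3, in 5 of the 6 that have a value there, with Krt14 at 952, 2439 and 646 FPKM. Of all genes 9.56% were higher at that age than at E18.5. Fibroblast, muscle and vessel markers were lower at that age, as given below. In tissue made of many cell types, more cells of a type and more RNA per cell cannot be told apart. The part of such shifts in the P3 levels of Foxn1, Foxe1 and Foxq1 was not tested.

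Foxc1 was the stromal and vessel member with the largest difference, and its course was not that of the others in its group. This gene of mesenchyme, eye and vessels, which hair follicle stem cells also use to keep quiescent (chromosome 13, 31898515 to 31902504), stood at 2.03, 10.6 and 8.89 FPKM. Its log2 differences were 1.93 and -0.23, next to 2.12 and -0.27 for Foxq1. Foxq1 and Foxc1 were the 2 members called lowest at E18.5 against both other ages, as 2.45% of all genes were.

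The other 3 stromal members above 1 FPKM were low at P3. Foxs1, a gene of pericytes, stood at 2.02, 0.729 and 2.62 FPKM, and was called higher at 10 weeks than at P3 with a log2 difference of 1.06. Foxd1, a gene of mesenchyme and of fibroblast lineages, stood at 1.59, 0.469 and 1.75 FPKM, with log2 differences of -0.82 and 0.90. Foxc2, required for lymphatic vessel valves (chromosome 8, 123640071 to 123642794), stood at 0.323, 0.186 and 1.14 FPKM, with log2 differences of -0.16 and 0.85. All 3 thus had their lowest value at P3 and their highest at 10 weeks. The call of Foxs1 was lost under both other scalings, at 0.92 and 0.98. With a pseudocount of 0.1, which weighs less on such low levels, the differences from P3 to 10 weeks of Foxd1 and Foxc2 were called too, at 1.70 and 2.11. The P3 value of Foxc2 is marked NOTEST, for too few reads to test. Foxd2, Foxf2 and Foxl1 stayed below 1 FPKM, with highest values of 0.710, 0.128 and 0.146.

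Markers of the same cell types were set beside them. Most vessel and fibroblast markers were lower at P3 than at E18.5, whereas most pericyte and smooth muscle markers were not called in that comparison. Of all genes 9.42% were lower in it (median 0.03), and 19.8% were higher at 10 weeks than at P3 (median 0.14). Of 9 pericyte and smooth muscle markers, 2 were lower at P3 than at E18.5 and 7 were higher at 10 weeks than at P3, with medians of -0.59 and 1.21. The 2 were Kcnj8 and Abcc9, and the E18.5 value of Abcc9, 6.86 FPKM, carries a failure mark. Pdgfrb, the pericyte receptor, stood at 10.0, 4.72 and 17.7 FPKM, whereas Notch3, a receptor of mural cells, was highest at P3 with 12.5, 17.2 and 14.6 FPKM. Median-of-ratios scaling left 4 of the 9 higher at 10 weeks, and a pseudocount of 5 left 1 lower at P3. Of 12 vessel and lymphatic markers, 10 were lower at P3 and 7 were higher again at 10 weeks (medians -1.54 and 1.35), and the lymphatic hyaluronan receptor Lyve1 went from 36.1 to 8.74 and 124 FPKM. Prox1, the lymphatic master gene, was at 1.05, 0.504 and 0.983 FPKM, all under 2-fold. Of 10 fibroblast markers, 8 were lower at P3 and 6 higher at 10 weeks (medians -1.42 and 1.66). The summed levels of the 3 lists ran 176, 162 and 377 FPKM for pericytes, 254, 79.3 and 303 for vessels, and 3447, 1259 and 4371 for fibroblasts. No marker of the 3 lists was at 0. With a pseudocount of 5 the vessel markers higher at 10 weeks were 4. Foxc1 had instead gained 2-fold by P3. The part of cell composition in the levels of Foxs1, Foxd1 and Foxc2 was not tested.

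Foxm1, the transcription factor of late cell cycle and mitosis (chromosome 6, 128313012 to 128335162), stood at 11.3, 13.7 and 1.83 FPKM. The early ages were both high and the adult was low. Its log2 difference was 0.26 from E18.5 to P3 and -2.38 from P3 to 10 weeks, which ranked at percentile 2.38 of all genes compared. Foxm1 and Foxi3 were the 2 members called lowest at 10 weeks against both other ages, as 3.51% of all genes were. The tables list Foxm1 with the same span as 4933413G19Rik, which was at 0.187 and 0.0929 FPKM and then listed at 0.

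Most genes of a cell cycle list set beside Foxm1 were, like it, lower at 10 weeks than at P3. The list holds partners and targets of Foxm1 and general proliferation genes such as Mki67. Of its 21 genes, 0 were called in either direction from E18.5 to P3 (median 0.21), where 9.56% of all genes were higher and 9.42% lower. From P3 to 10 weeks 18 were lower (median -2.32), where 9.98% of all genes were. Mybl2, the B-Myb partner that binds beside Foxm1 at mitotic genes, stood at 5.04, 8.59 and 0.844 FPKM. The mitotic kinase gene Plk1 stood at 14.2, 17.8 and 2.35 FPKM, and Ccnb1, the cyclin of mitotic entry, at 41.3, 42.5 and 6.31 FPKM. The 3 that were not lower were Cdc25b, Lin54 and Skp2, with log2 differences of -0.40, -0.64 and -0.99. Cdc25b, a phosphatase of mitotic entry often named as a Foxm1 target, was at 12.1, 15.2 and 11.3 FPKM. The part of the number of dividing cells in the levels of Foxm1 and of these genes was not tested.

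**Figure D3:**
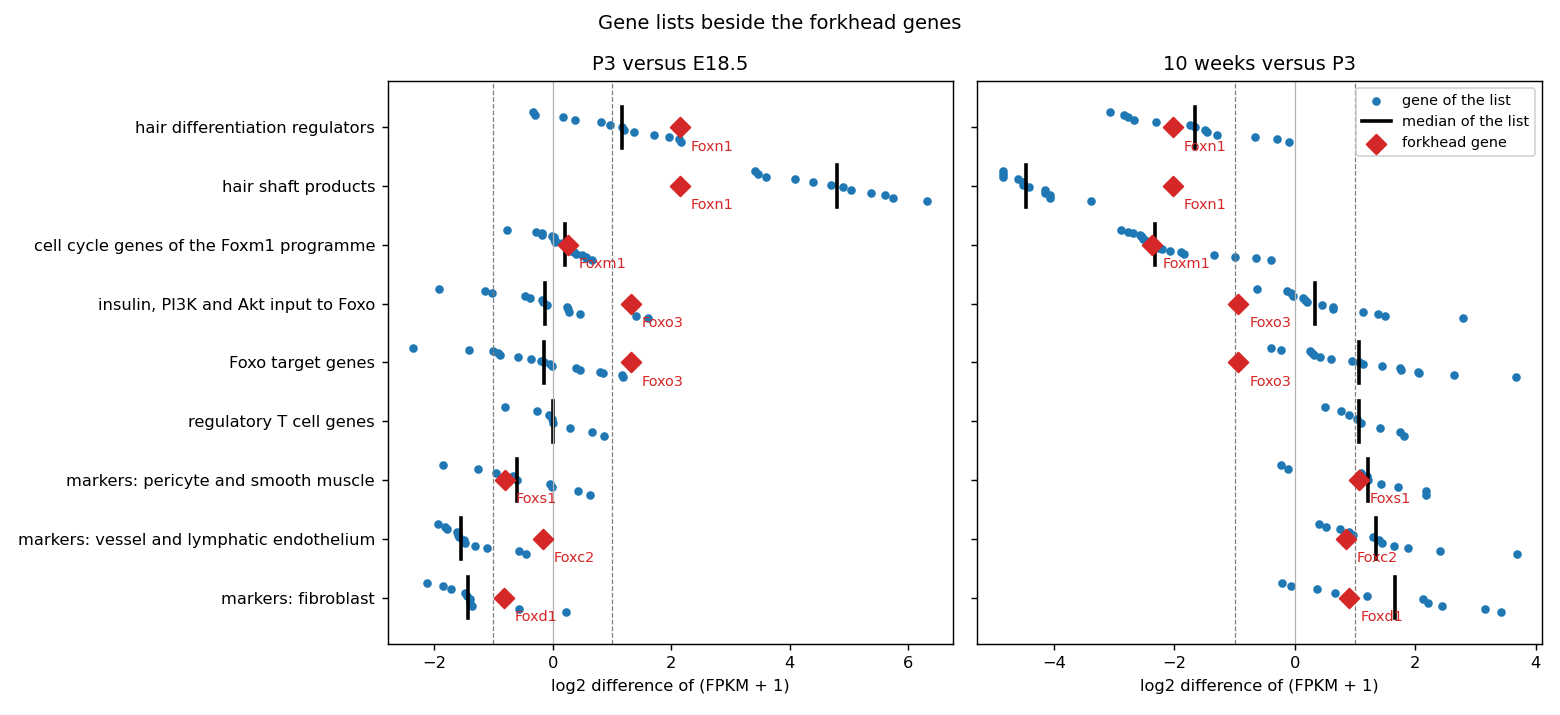
Log2 difference of (FPKM + 1) for the genes of 9 lists (blue points), with the median of each list (black bar), from E18.5 to P3 (left) and from P3 to 10 weeks (right); a red diamond sets a forkhead gene beside a list and dashed lines mark 2-fold. Foxm1 lies near the median of its list in both panels, Foxn1 lies nearer 0 than every hair shaft gene, and Foxo3 lies at the opposite side of 0 from the median of the Foxo targets in both.

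The metabolic members, Foxo1, Foxo3, Foxo4, Foxo6, Foxk1 and Foxk2, were all above 3 FPKM at every age, and 1 of the 6 was called in any comparison. Foxo3, which restrains growth and drives stress-resistance genes (chromosome 10, 41905592 to 41996548), stood at 6.97, 18.98 and 9.43 FPKM. Only its P3 value was high, with log2 differences of 1.33 and -0.94, the second just under 2-fold. Foxo1, the main Foxo of insulin action in liver and fat, was at 7.60, 14.9 and 13.7 FPKM, low at E18.5, with a log2 difference of 0.88 to P3. Foxo4, on the X chromosome (98449867 to 98456212), was at 16.9, 14.7 and 26.4 FPKM, highest in the adult, with a log2 difference of 0.80 from P3. Foxo6 was flat, with 3.78, 4.22 and 4.23 FPKM. Foxo1 and Foxo3 thus had their top at P3 and Foxo4 at 10 weeks. Foxk1 and Foxk2, which promote glycolysis and repress autophagy genes, spanned 5.99 to 8.91 FPKM and 12.8 to 15.9 FPKM.

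Of the signals upstream of Foxo, from E18.5 to P3 2 of 14 genes were higher and 3 lower (median -0.13, all genes 0.03), where 9.56% and 9.42% of all genes were. From P3 to 10 weeks 4 were higher and 0 lower (median 0.33, all genes 0.14), where 19.8% and 9.98% of all genes were. With a pseudocount of 5, 1 was lower in the first comparison and 2 were higher in the second. The 2 higher at P3 were Pik3cb, a catalytic subunit of PI3K, at 5.04, 17.5 and 11.1 FPKM, and Sgk1, a kinase that also inactivates Foxo proteins, at 17.6, 48.4 and 75.7 FPKM. Igf1, the growth factor, stood at 24.2, 5.65 and 45.2 FPKM, and Insr, the insulin receptor, at 6.42, 4.39 and 10.8 FPKM. Akt1, the kinase that inactivates Foxo proteins, was at 73.6, 68.7 and 62.7 FPKM. Members of the list thus took different courses, with Igf1 and Insr lowest and Pik3cb highest at P3.

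Of 17 Foxo target genes, 2 rose and 3 fell 2-fold from E18.5 to P3 (median -0.14), where 9.56% and 9.42% of all genes did. These counts were 1 and 1 with a pseudocount of 5, and 5 were lower with upper-quartile scaling. From P3 to 10 weeks 9 were higher and 0 lower (median 1.06, all genes 0.14), where 19.8% and 9.98% of all genes were. The 9 include the muscle ubiquitin ligases Trim63 (3.76, 0.795 and 21.8 FPKM) and Fbxo32 (2.54, 6.92 and 25.7 FPKM), and Pdk4, a brake on glucose oxidation (15.0, 2.13 and 18.5 FPKM). Txnip, an inhibitor of glucose uptake, was at 131, 114 and 478 FPKM. Others were under 2-fold from P3 to 10 weeks. The cell cycle inhibitor Cdkn1b was at 23.2, 22.6 and 30.3 FPKM, and the antioxidant enzymes Sod2 and Cat at 28.2, 18.4 and 36.5 FPKM and at 63.7, 84.1 and 105 FPKM. Skeletal muscle markers were higher at 10 weeks in 8 of 8 genes compared, with a median log2 difference of 6.29 and a summed level of 3927, 328 and 18805 FPKM at the 3 ages. Macrophage markers were higher in 6 of 6, and adipocyte markers in 6 of 7. The part of muscle, fat and macrophages in the levels of Foxo4 and the Foxo targets was not tested.

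The immune members were Foxp3 and Foxp1. Foxp3, the factor that defines regulatory T cells, was at 0.0226, 0.0278 and 0.467 FPKM, below the minimum for a comparison, and the tables mark both early values NOTEST, a status that stands for too few reads to test. The 10-week value was the highest of the 3. The tables list Foxp3 with the same span (chromosome X, 7135688 to 7182546) as Ccdc22, Ppp1r3f and 4930524L23Rik, so reads shared between them could be divided differently at each age. Ccdc22 was at 9.70, 10.3 and 10.1 FPKM, far above Foxp3 at every age. Of 8 other regulatory T cell genes, 0 were called from E18.5 to P3, where 9.56% of all genes were higher and 9.42% lower. At 10 weeks 5 were higher than at P3 (median 1.07, all genes 0.14), where 19.8% of all genes were. That 5 became 0 with a pseudocount of 5, 7 with one of 0.1, 2 of 4 with a minimum of 5 FPKM and 3 of 7 with median-of-ratios scaling. Of the 5, all but Lrrc32 (Ctla4, Ikzf2, Icos and Il10) reached 1 FPKM only at 10 weeks. With the added 1, such genes could not be called from E18.5 to P3, and a call from P3 could only be higher at 10 weeks. Ctla4, an inhibitory receptor of these cells, stood at 0.355, 0.302 and 1.68 FPKM, and Ikzf2, their factor Helios, at 0.564, 0.908 and 5.37 FPKM. T cell markers were higher at 10 weeks than at P3 in 5 of 6 genes compared (1 with a pseudocount of 5), the other being Lck at 1.68, 1.93 and 2.02 FPKM, with Cd3e at 0.0671, 0.0824 and 3.78 FPKM and a summed level of 2.91, 3.53 and 31.5 FPKM. The 5 T cell markers called, Cd2, Cd3d, Cd3e, Cd3g and Cd4, also reached 1 FPKM only at 10 weeks, so the same limit holds for them. The part of T cell number in the 10-week level of Foxp3 was not tested.

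Foxp1, a factor of B cell development and T cell quiescence that hair follicle stem cells also express, ran at much higher levels. It stood at 4.92, 10.4 and 10.0 FPKM (chromosome 6, 98875336 to 99385339). Only E18.5 was low, with a log2 difference of 0.95 to P3, just under 2-fold. This order of ages, lowest at E18.5 and highest at P3, is that of Foxq1, Foxc1 and Foxo1. Among members that reached 1 FPKM, Foxn1, Foxe1, Foxo3, Foxk1 and Foxp4 have it too.

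Of the members without a listed role, Foxa1 differed most. Foxa1, which opens chromatin in endoderm and in glandular epithelia, stood at 0.0106, 0.0245 and 2.03 FPKM (chromosome 12, 58641619 to 58647108). It was the only member called highest at 10 weeks against both other ages, as 12.3% of all genes were, with a log2 difference of 1.57 from P3. Both early values of Foxa1 are marked NOTEST, and only its 10-week value brought it into the comparison. Foxd3, a neural crest gene kept in glial and melanocyte precursors, stood at 1.54, 0.654 and 1.67 FPKM, low at P3 like Foxd1 and Foxs1. Sox10, which marks the same lineage, was at 5.31, 5.93 and 5.68 FPKM and did not share that course. S100b of Schwann cells, at 4.9997, 1.87 and 6.06 FPKM, had the course of Foxd3.

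The remaining members were under 2-fold in every comparison with the added 1. With a pseudocount of 0.1, Foxr1 was called lower at 10 weeks than at P3 and E18.5 (-1.001 and -1.04) and Foxj2 higher at 10 weeks than at E18.5 (1.08). The 10-week value of Foxr1 is marked NOTEST. Foxj2 stood at 4.64, 6.28 and 9.89 FPKM, Foxj3 at 8.80, 10.8 and 12.3 FPKM, and Foxn2 at 6.39, 7.40 and 10.4 FPKM. Foxn3, a repressor that acts in DNA damage checkpoints, was at 7.05, 10.9 and 12.4 FPKM. In these 4 the value was lowest at E18.5 and highest at 10 weeks, with the largest log2 difference, 0.95 from E18.5 to 10 weeks, in Foxj2. Foxp4 was at 5.23, 6.85 and 6.37 FPKM. Foxr1 was the only one of this group that was lowest in the adult, at 1.16, 1.13 and 0.513 FPKM.

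Members that lie near each other were compared, since several forkhead genes sit in pairs or triplets. Genes outside the family can lie between them. On chromosome 13 Foxq1, Foxf2 and Foxc1 lie in that order within gaps of 64.8 kb and 175 kb. The outer genes Foxq1 and Foxc1 took the same course at 1.11 to 8.18 and 2.03 to 10.6 FPKM between E18.5 and P3, while Foxf2 between them was at 0.128, 0.0417 and 0.0755 FPKM. On chromosome 8 Foxc2 and Foxl1 are 8.79 kb apart, both lowest at P3 and highest at 10 weeks, Foxl1 at 0.0812, 0.0747 and 0.146 FPKM. On chromosome 4 Foxd2 (0.523, 0.309 and 0.710 FPKM) lies 16.2 kb from Foxe3, which was listed at 0 at E18.5 and 10 weeks and at 0.00740 FPKM at P3. Foxj3 and Foxo6, on the same chromosome, are 638 kb apart with 4 other genes between them. Neighbours thus shared a course in some cases and not in others, and the low values rest on few reads.

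**Figure D4:**
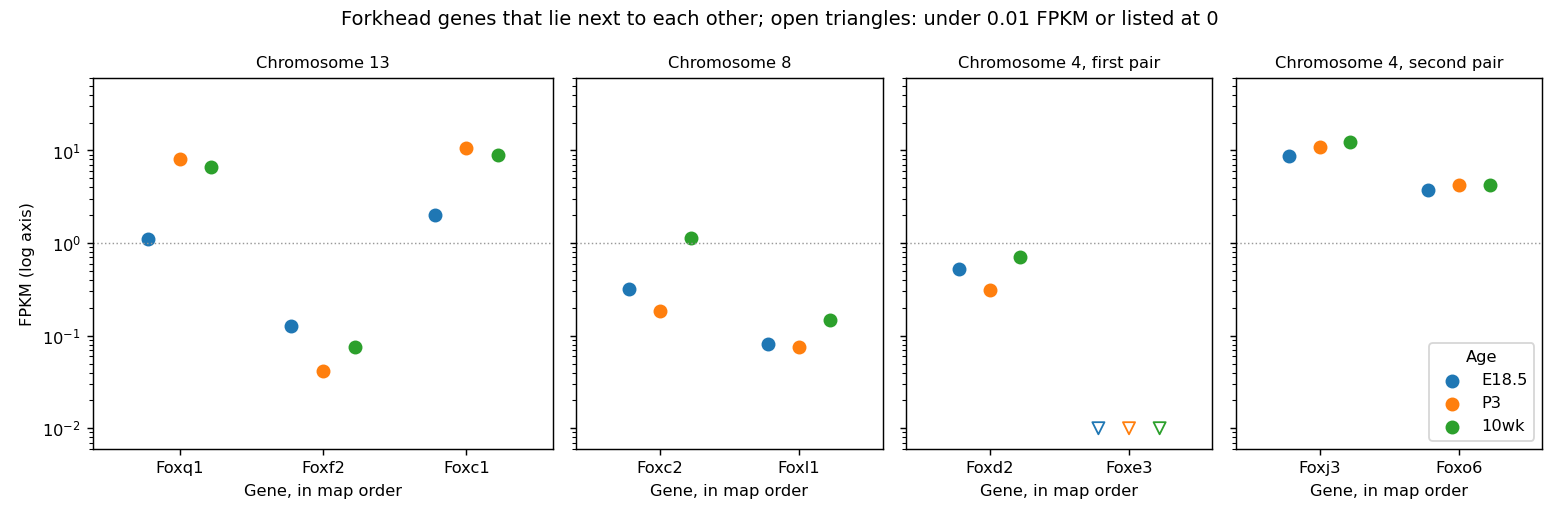
FPKM (log axis) at E18.5, P3 and 10 weeks of forkhead genes that lie near each other, in map order, in 4 panels by locus. In the last panel Foxj3 and Foxo6 are 638 kb apart with 4 other genes between them. Open triangles stand for values under 0.01 FPKM or listed at 0. Foxq1 and Foxc1 both rise after E18.5, whereas Foxf2 between them stays at or below 0.128 FPKM.

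Gene size was set beside the calls, with no test. The 9 members called in any comparison had a median span of 4.46 kb in the tables, with a range of 1.12 to 91.0 kb, and 4 of them have a single exon in GENCODE M21. The 15 members compared but under 2-fold had a median span of 49.8 kb, with a range of 2.37 to 510 kb, and 3 of them have a single exon. The ranges overlap widely, and this split was made after the values were seen. Foxe1 spans 1.12 kb in the tables, whereas its GENCODE M21 transcript is 2804 bases long. Some other members with a single exon also have a shorter span in the tables. It is 2.81 kb against 4843 bases in Foxq1, 3.99 kb against 5844 in Foxc1 and 2.46 kb against 5064 in Foxd1. Others with a single exon do not, with 1.311 kb against 1311 bases in Foxs1, 2.724 kb against 2725 in Foxc2 and 2.345 kb against 1962 in Foxd4. FPKM divides by the length of the model used, so ranks and shares of members within the family depend on it.

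Promoters are shown for 4 of the 5 called members that have an entry in RefSeq's mouse promoter table (GRCm38.p6), Foxa1 being the other, namely Foxn1, Foxc1 and Foxo3, which gained 2-fold or more by P3, and Foxi3, which was lower at 10 weeks. Each run is the 250 bases before the listed start, 5′ to 3′ on the gene's strand. Capitals mark the CCAAT box, CCAAT or its reverse ATTGG, and would also mark TATAAA, the cell cycle homology region TTTGAA and the forkhead core GTAAACA on either strand, which none of the 4 holds.
Foxn1, chr11:78386609-78386858, minus strand: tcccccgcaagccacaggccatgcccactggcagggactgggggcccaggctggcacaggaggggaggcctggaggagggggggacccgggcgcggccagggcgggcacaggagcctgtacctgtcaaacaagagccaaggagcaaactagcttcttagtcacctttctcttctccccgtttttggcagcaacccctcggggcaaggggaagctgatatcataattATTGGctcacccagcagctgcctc
Foxc1, chr13:31806396-31806645, plus strand: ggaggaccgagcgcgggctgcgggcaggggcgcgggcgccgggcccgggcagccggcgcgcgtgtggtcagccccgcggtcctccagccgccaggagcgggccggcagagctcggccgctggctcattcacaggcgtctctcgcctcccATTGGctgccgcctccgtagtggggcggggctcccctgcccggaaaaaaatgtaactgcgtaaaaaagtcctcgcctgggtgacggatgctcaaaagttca
Foxo3, chr10:42276696-42276945, minus strand: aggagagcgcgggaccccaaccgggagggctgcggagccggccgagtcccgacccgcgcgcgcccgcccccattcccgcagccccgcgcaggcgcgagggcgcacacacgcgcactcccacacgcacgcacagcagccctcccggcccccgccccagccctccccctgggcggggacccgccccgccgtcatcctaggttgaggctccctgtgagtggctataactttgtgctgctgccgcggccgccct
Foxi3, chr6:70956356-70956605, plus strand: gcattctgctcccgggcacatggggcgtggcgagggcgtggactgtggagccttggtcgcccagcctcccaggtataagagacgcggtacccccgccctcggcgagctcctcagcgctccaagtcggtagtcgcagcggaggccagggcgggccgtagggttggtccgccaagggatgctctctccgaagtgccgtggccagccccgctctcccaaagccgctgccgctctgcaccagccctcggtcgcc

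These windows were rich in G and C, with 63.2% in Foxn1, 70.8% in Foxc1, 76.4% in Foxo3 and 70.4% in Foxi3, where the median over the 32851 promoters counted was 52.4%. Promoters of chromosome 18, on which no member lies, were left out of these counts. Over the 33 listed promoters of 28 members the median was 62.0%. It was 65.6% for members that reached 1 FPKM and 58.8% for those that did not, with wide ranges of 45.2% to 80.4% and 37.6% to 71.6%. The CCAAT box was present in 14 of the 33 (42.4%) and in 33.8% of all promoters, and in Foxn1 and Foxc1 but not in Foxo3 or Foxi3 of those shown. TATAAA was present in 3 of the 33 (9.09%) and in 12.4% of all. The cell cycle homology region was present in 3 of the 33 (9.09%) and in 15.99% of all. The forkhead core was present in 1 of the 33 (3.03%), Foxa1, and in 3.17% of all.

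The ages also differ in sex-linked genes, which bears on the X-linked Foxo4, Foxp3 and Foxr2. Xist was at 0.0433, 64.6 and 73.0 FPKM, and Ddx3y of the Y chromosome at 24.1 and 0.0218 FPKM and then listed at 0. Every comparison with E18.5 therefore sets a library of male pattern against one of female pattern, and sex and age cannot be told apart in it. For P3 and 10 weeks, where the pattern was the same, Foxo4 differed by 0.80 and stayed under 2-fold.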

How the data were processed

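Whole-skin RNA of 3 ages was measured by RNA sequencing, with 1 table per age. The deposited values are FPKM, headed as averages per the file headers. The submitters' processing notes name TopHat2 2.0.7, Cufflinks 2.1.1 and the mouse build mm9. Annotation, strand setting and read numbers are details not given in the sources used here. Depth, and with it the precision of low values, is therefore unknown. FPKM is a share of each library. RNA was extracted with Trizol and libraries made with the Illumina TruSeq kit, per the labels' protocols.

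Values listed at 0 with a failure mark (3 at E18.5, 7 at P3, none in a forkhead gene) were treated as missing. Values above 0 with such a mark were kept, as for Abcc9 at E18.5. Table starts count from 0, judged from 535 microRNA genes of which 228 fitted that convention and 4 the other, so 1 was added. Differences used a pseudocount of 1, a minimum of 1 FPKM at 1 or more ages and a 2-fold threshold, over all 21885 rows (Python 3.11.15, pandas 2.3.3). With 1 value per age no test was run. The calculation was checked on simulated data. Alternatives were pseudocounts of 0.1 and 5, minimums of 5 FPKM and none, 2 scalings, and no chromosomes X and Y. Every member in a role group or at 1 FPKM is named with its values, and the others by name, other than 1 that is not reported here. Members and gene lists were chosen with earlier results of these data known. Of the list entries, Adgre1, Foxf1 and Trac were not matched. The helix was found by a residue pattern whose last position was widened after Foxe1 and Foxe3 were at first not found, and the promoters shown, the motifs, the neighbour pairs and the comparison of gene sizes were chosen after values were seen. Sequences come from RefSeq (28 of 43 members matched) and GENCODE M21, both of GRCm38, while coordinates of genes are those of the tables in mm9.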

Additional observations from a re-analysis of the deposited data

How the results depend on the processing

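Of the 16 forkhead differences called 2-fold, 8 were kept under every alternative that gave them a value. All 16 were kept with a pseudocount of 0.1, with no minimum and without chromosomes X and Y, and 13 of the 13 that remained with a minimum of 5 FPKM. With a pseudocount of 0.1, 3 members were lower at P3 than at E18.5 (Foxd1, Foxd3 and Foxs1, against 0), 5 were higher at 10 weeks than at P3 (against 2) and 6 higher at 10 weeks than at E18.5 (against 3). With a pseudocount of 5, 0 were higher and 2 lower at 10 weeks than at P3, Foxn1 and Foxm1, and 0 were higher and 1 lower, Foxm1, at 10 weeks than at E18.5. A minimum of 5 FPKM left 0 members higher at 10 weeks than at P3. Median-of-ratios and upper-quartile scaling left 1, Foxa1, since Foxs1 went to 0.92 and 0.98. With these scalings Foxo3 fell by 1.15 and 1.04 from P3 to 10 weeks, past the threshold. The scalings shift log2 ratios of FPKM by -0.03 and -0.18 from E18.5 to P3, by -0.24 and -0.11 from P3 to 10 weeks and by -0.27 and -0.30 from E18.5 to 10 weeks. The changes with pseudocount follow from its weight on low values. The rises of Foxn1, Foxq1, Foxe1, Foxc1 and Foxo3 at P3 and the adult fall of Foxm1 kept their calls under every alternative. No paired analysis was possible because each age has 1 value, and leaving out a replicate was not possible for the same reason. Unknown depth limits members under 1 FPKM most.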
